A study of Mus musculus with 4 samples.

Results

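Reference genes are transcripts against which the level of other genes is set in quantitative PCR, and 9 of those in common use were followed here over the arrays of a study of diesel exhaust particles (DEPs) in the mouse middle ear. The members, Gapdh, Actb, B2m, Hprt, Tbp, Ppia, Gusb, Polr2a and Ywhaz, were chosen by name, and every non-control probe whose target accession belongs to one of these genes was taken, whatever its value. That gave 17 probes of the 39429 on the array, for 8 of the 9 genes, and all 17 were among the 31577 probes tested. Polr2a, the largest subunit of RNA polymerase II, is named only, as no probe was matched to it by accession.

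The samples were 4 two-colour arrays on 1 slide, with cRNA of an ear extract labelled DEP in Cy5 (red) hybridised beside that of an ear extract labelled control in Cy3 (green). Male BALB/c mice aged 6 to 10 weeks were used, 9 in the whole study. DEPs were inhaled on 5 days, 1 h per day, and on day 14 the mice were killed and the temporal bone area with the middle ear was taken. Before sampling the mice were given zoletil and rompun as anaesthetics, and ketoprofen, an anti-inflammatory pain reliever, was also used. No allele is named for either group, the vehicle or air given to controls is not described in the sources used here, and the number of mice behind an extract is not given. The arrays are therefore counted as replicates, and p-values measure the spread between these 4 arrays only.

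No array had its dyes swapped, so a dye preference of a probe cannot be told apart from a difference between the groups. Groups were assigned by the source name of a channel, since the treatment labels of both stand with Cy5. Each ratio divides the signal labelled DEP by the one labelled control, and the direction this gives is opposite to the study's for Esr1, Sos1, Ifna1 and Chrm1, genes it measured by quantitative PCR. Of these 4 only Esr1 was well above background throughout. Slc1a2, an astrocyte marker that the study also names, was so too and lay against the study's direction on 4 of 4 arrays, with a mean of -1.61. The mean of Cd4, with 2 arrays on each side of 0, had the study's direction. Every count of higher and lower genes given here follows the labels and would turn with them. Spreads over arrays do not depend on that direction. Bulk tissue was measured, in which fewer cells of a type and less RNA per cell cannot be told apart.

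A reference gene is chosen because its transcript is made in nearly every cell, so that a target gene's level can be divided by it to remove differences in the amount of RNA. The division passes any movement of the reference on to every target. The members come from unrelated processes, which is why several of them are commonly measured together: Gapdh is an enzyme of glycolysis, Actb a cytoskeletal actin, B2m the light chain of MHC class I, Hprt an enzyme of purine salvage, Tbp the TATA-binding protein of the transcription machinery, Ppia the prolyl isomerase cyclophilin A, Gusb the lysosomal enzyme beta-glucuronidase, and Ywhaz the 14-3-3 protein zeta. In this study Gapdh was the gene used to normalise the quantitative PCR.

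The sequence before the start site differs widely among these genes. In the RefSeq promoter table of the mouse build GRCm38.p6, 7 of the 9 genes matched by symbol, and those of Gapdh, B2m, Hprt and Ppia are shown. The study normalised to the first, and the other 3 had the lowest pairwise spread over all 8 signals in the measurements that follow. Each line is the 250 bases before the annotated start, 5′ to 3′ on the strand of the gene. They lie at chr6:125165774-125166023 on the minus strand for Gapdh, and on the plus strand at chr2:122147437-122147686 for B2m, chrX:52987828-52988077 for Hprt and chr11:6415617-6415866 for Ppia. Capitals mark matches to 3 motifs: TATAAA, searched on the sense strand, and GGGCGG (the GC box) and CCAAT, each searched on both strands.
Gapdh: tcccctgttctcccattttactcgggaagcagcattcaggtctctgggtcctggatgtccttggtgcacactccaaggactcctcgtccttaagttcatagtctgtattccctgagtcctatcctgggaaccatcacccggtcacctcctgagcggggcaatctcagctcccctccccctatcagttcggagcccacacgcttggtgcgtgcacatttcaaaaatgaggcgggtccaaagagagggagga
B2m: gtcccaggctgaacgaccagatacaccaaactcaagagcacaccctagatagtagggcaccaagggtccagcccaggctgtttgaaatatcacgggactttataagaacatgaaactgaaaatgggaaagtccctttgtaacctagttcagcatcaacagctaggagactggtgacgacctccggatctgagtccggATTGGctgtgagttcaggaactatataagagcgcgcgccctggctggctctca
Hprt: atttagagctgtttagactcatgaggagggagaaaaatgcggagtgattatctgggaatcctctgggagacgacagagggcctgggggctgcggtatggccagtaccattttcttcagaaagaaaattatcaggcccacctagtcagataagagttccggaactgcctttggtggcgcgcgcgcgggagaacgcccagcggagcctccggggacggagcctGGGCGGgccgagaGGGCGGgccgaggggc
Ppia: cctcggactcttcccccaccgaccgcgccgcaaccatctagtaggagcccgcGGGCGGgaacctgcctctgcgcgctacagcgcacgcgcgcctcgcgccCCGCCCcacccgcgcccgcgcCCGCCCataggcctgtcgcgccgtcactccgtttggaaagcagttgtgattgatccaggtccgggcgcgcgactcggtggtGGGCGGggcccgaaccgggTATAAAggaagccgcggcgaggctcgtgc

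The Ppia window held 1 TATAAA, 29 bases before the start, and 4 GC boxes. The Hprt window held 2 GC boxes, the B2m window 1 CCAAT on the opposite strand, and the Gapdh window no match to these letters. Among 32851 promoter windows of the same length, 7.59% held TATAAA, 32.7% held GGGCGG and 33.8% held CCAAT. The number of CG dinucleotides was 38 in the Ppia window, at the 98.1 percentile of all windows, 17 in that of Hprt, and 8 each in those of Gapdh and B2m, against a median of 6. These letters describe the windows and nothing was tested against the array values.

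Signal was clear for nearly all members. On every array 16 of the 17 probes were well above background in either channel, the exception being 1 of the 2 Tbp probes, which was so in the control channel on 2 arrays. No spot of any probe was saturated. Gapdh, Actb and Ppia have many processed pseudogenes in the mouse genome, and whether a probe also binds transcripts of these was not tested. A gene with several probes is represented below by its brightest one, called the lead probe. A percentile places a probe's spread among the 22395 probes that met this background rule throughout, called well measured. The lead probes of Tbp and Ywhaz were the dimmest of the lead probes. Their signals were 349 to 881 and 395 to 776 intensity units over both channels, against 1274 to 1985 for Gusb.

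No member probe passed the test of a difference between the channels. Each probe's ratios were set against 0 in limma's moderated fit (two-sided), adjusted by Benjamini-Hochberg over all 31577 probes, and 0 of the 17 had an adjusted p under 0.05, as did 0% of all probes. The smallest adjusted p was 0.134 among the members and 0.0922 among all probes. Without adjustment, 2 of the 17 fell under 0.05, against 18.6% of all probes. No member had a mean ratio past 2-fold, against 6.69% of all probes, and the 95% interval of all 17 lay within 2-fold, against 70.6% of all probes. An exact sign-flip test of 4 arrays could not go below a two-sided p of 0.125.

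The ratios of several members changed when the spot signals were processed in another way. When the background was corrected with normexp and each array only centred on its median, the mean log2 ratio of the lead probe was 1.31 for Actb, 1.09 for Gapdh and 1.00 for Ppia, and 6 of the 17 probes passed the test, as did 4190 of all probes. With normexp followed by loess, which fits the dye effect along intensity, 0 passed. The lead probes of Actb, Gapdh and Ppia were then at 0.43, 0.22 and 0.13. Both settings also replaced the background correction of the image software and used median spot signals. Which step moved the ratios was not tested.

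Gapdh, the study's normaliser, had a mean ratio near 0 made of arrays that lay on opposite sides of it. Its lead probe, A_55_P2186027, had log2 ratios of -0.51, -0.15, 0.29 and 0.49 on arrays 1 to 4. The mean was 0.03 ± 0.45 (SD, n = 4), with a 95% interval from -0.48 to 0.54 and an adjusted p of 0.942. The lowest and the highest array differed 2.00-fold, and the SD lay at the 73.2 percentile. The channel labelled control was the brighter one on arrays 1 and 2 and the dimmer one on arrays 3 and 4.

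All 7 Gapdh probes gave this order of arrays, apart from an exchange of arrays 3 and 4 in 1 probe. Their median log2 ratio was -0.65 on array 1, -0.29 on array 2, 0.31 on array 3 and 0.35 on array 4. None of the 7 was above 0 on arrays 1 and 2, whereas 6 were on array 3 and 7 on array 4. The SD over the 7 probes of an array was between 0.16 and 0.20, smaller than the steps between arrays 1 and 2 and between arrays 2 and 3. All 7 probes target the same transcript accession and share their extracts, so they repeat the measurement of Gapdh and do not add replicates of the comparison.

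The 7 probes differed more in how far the arrays lay apart. The SD over arrays was lowest for A_55_P2081133, at 0.33, with ratios of -0.40, -0.10, 0.17 and 0.35. It was highest for A_55_P1965725, at 0.66, with ratios of -0.98, -0.61, 0.32 and 0.33. These values correspond to percentiles from 57.9 to 86.0, above the middle of the well-measured probes for each of the 7. The means of the 7 ran from -0.31 for A_55_P2088912 (adjusted p = 0.380) to 0.03 for the lead probe, and no mean differed from 0 after adjustment.

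**Figure D1:**
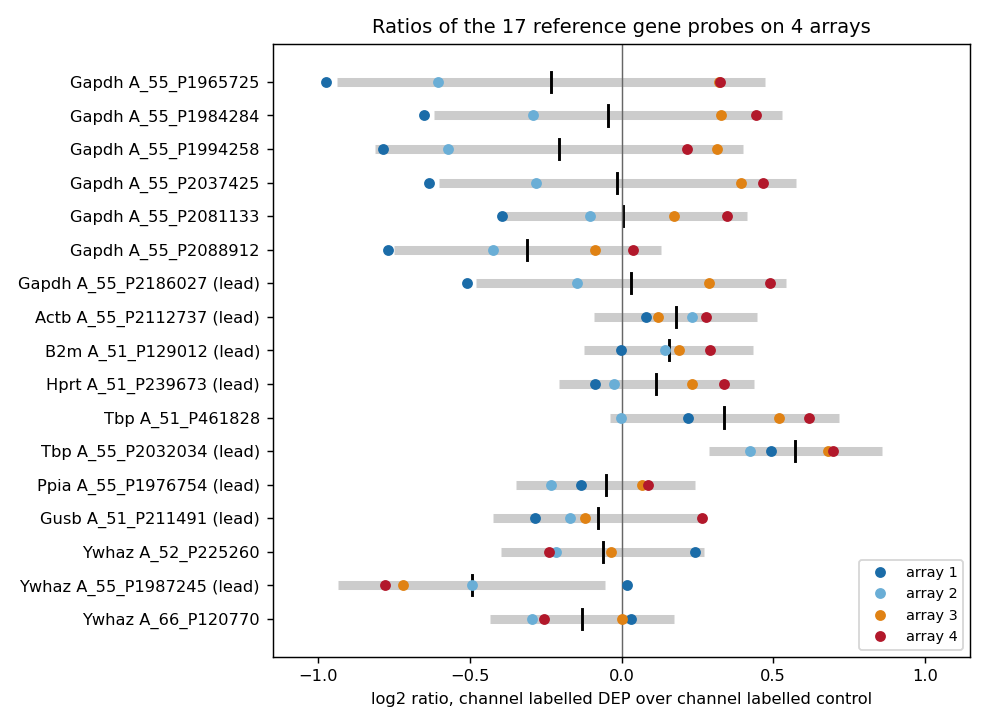
Log2 ratio of DEP over control as labelled (horizontal axis) for the 17 probes of 8 reference genes, with 1 coloured point per array, the mean as a black tick and its 95% interval as a grey bar. The 7 Gapdh probes spread from below to above 0 in the order of the arrays. The points of Actb, B2m, Ppia and the Tbp lead probe lie close together.

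With 1 constant removed per array, Gapdh moved over a wider range in the channel labelled control than in the other. The lead probe's Cy3 signal was 192500, 115700, 90620 and 81720 intensity units on arrays 1 to 4, and its Cy5 signal was 135200, 104600, 110800 and 114700. After that removal the control channel was brightest on array 1 and dimmest on array 4, over a 1.56-fold range, and the DEP channel was dimmest on array 1 and brightest on array 4, over a 1.29-fold range. Over the 7 probes the range was 1.42-fold to 2.32-fold in the control channel and 1.17-fold to 1.34-fold in the DEP channel. The SD of the lead probe was 0.18 in the DEP channel and 0.28 in the control channel, but nearly equal, at 0.22 and 0.24, when each channel was scaled on its 75th percentile instead. With the constants removed, the SD percentile of the 7 probes ran from 48.4 to 86.9 in the control channel and from 19.3 to 48.3 in the DEP channel.

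Actb was slightly brighter in the DEP channel on 4 of 4 arrays and had the smallest spread of ratio among the lead probes as deposited. Its probe, A_55_P2112737, gave log2 ratios of 0.08, 0.23, 0.12 and 0.28, a mean of 0.18 ± 0.094 (SD, n = 4). The 95% interval ran from -0.089 to 0.45 and the adjusted p was 0.401, so the shift did not pass the test. The SD lay at the 7.2 percentile. That of B2m was smaller with normexp and loess, at 0.076 against 0.11, and without array 1, at 0.075 against 0.083. Both signals of Actb were highest on array 4 once the array constant was removed, which a ratio within an array does not show.

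B2m gave log2 ratios of -0.0015, 0.14, 0.19 and 0.29, with a mean of 0.16 ± 0.12 (SD, n = 4) and an adjusted p of 0.471. Its SD lay at the 13.0 percentile. In the control channel its signal had an SD of 0.086, at the 8.8 percentile. Gapdh moved over a wider range in that channel on the same arrays.

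Ppia was the member closest to a ratio of 0 by the size of its 4 ratios as deposited. Its log2 ratios were -0.13, -0.23, 0.07 and 0.09, a mean of -0.05 ± 0.16 (SD, n = 4; adjusted p = 0.822). On arrays 1 and 2 the ratios of B2m and Hprt lay closer to 0, and on arrays 3 and 4 those of Ppia. With normexp and median centring the mean of Ppia was 1.00. The root mean square of its 4 deposited ratios, which counts both the spread and the distance from 0, was 0.145. By that measure Ppia ranked 1399 among 14281 well-measured genes, B2m 2609, Actb 2831, Hprt 3220 and Gusb 3598. Gapdh ranked 8268, Tbp 11206 and Ywhaz 11216. These ranks are those of the lead probes. The root mean square was 0.585 for the Ywhaz lead probe but 0.202 and 0.197 for the other Ywhaz probes. It was 0.584 for the Tbp lead probe and 0.418 for the other, and from 0.28 to 0.62 over the Gapdh probes.

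Hprt and Gusb were each printed as 10 spots of 1 probe, which shows the error of spotting and reading but not that of extraction, labelling or hybridisation. Over those spots the SD within an array was between 0.014 and 0.028. Hprt gave ratios of -0.087, -0.025, 0.23 and 0.34, with a mean of 0.11 ± 0.20 (SD, n = 4; adjusted p = 0.639). Gusb gave ratios of -0.29, -0.17, -0.12 and 0.26, with a mean of -0.08 ± 0.24 (SD, n = 4; adjusted p = 0.769). Both were lower in the DEP channel on arrays 1 and 2 and higher on array 4, as Gapdh was, over smaller ranges, and without array 4 the SD of Gusb was 0.085. The mean of Gusb was -0.19 without array 4 and -0.0089 without array 1, and that of Hprt was 0.040 without array 4.

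Tbp had the highest mean ratio of the members. Its lead probe, A_55_P2032034, gave log2 ratios of 0.49, 0.42, 0.68 and 0.70. The mean of 0.57 ± 0.14 (SD, n = 4) is 1.49-fold, with a 95% interval from 0.29 to 0.86. The adjusted p was 0.134. All 4 arrays were above 0, as they were for Actb, and these were the only 2 of the 17 probes with 1 sign throughout, against 29.8% of all probes. The other probe, A_51_P461828, with 10 spots, gave 0.22, -0.0009, 0.52 and 0.62, a mean of 0.34 ± 0.28 (adjusted p = 0.301), and its spots of 1 array had an SD between 0.15 and 0.21.

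Ywhaz had the lowest mean ratio, and its probes disagreed. The lead probe, A_55_P1987245, gave 0.018, -0.49, -0.72 and -0.78, a mean of -0.49 ± 0.36 (SD, n = 4) with a 95% interval from -0.93 to -0.05 and an adjusted p of 0.241. The probe A_52_P225260 gave 0.24, -0.22, -0.04 and -0.24, a mean of -0.06 ± 0.22 (adjusted p = 0.813). The probe A_66_P120770, which targets another transcript accession of the gene, gave 0.03, -0.30, 0.002 and -0.26, a mean of -0.13 ± 0.17 (adjusted p = 0.575). Array 1 was the only one at or above 0 with all 3 probes. The difference between the probes was not tested. Without array 1 the SD of the lead probe was 0.15.

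Over the 8 lead probes the SD of the ratio had a median of 0.18, between 0.094 for Actb and 0.45 for Gapdh. The median over all well-measured probes was 0.28, and 6 of the 8 lead probes, and 8 of the 17 probes, lay under it. The 2 lead probes above it were those of Gapdh and Ywhaz. In single channels the lead probes' median SD was 0.147 in Cy5 and 0.141 in Cy3, against 0.185 and 0.223 over all well-measured probes.

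**Figure D2:**
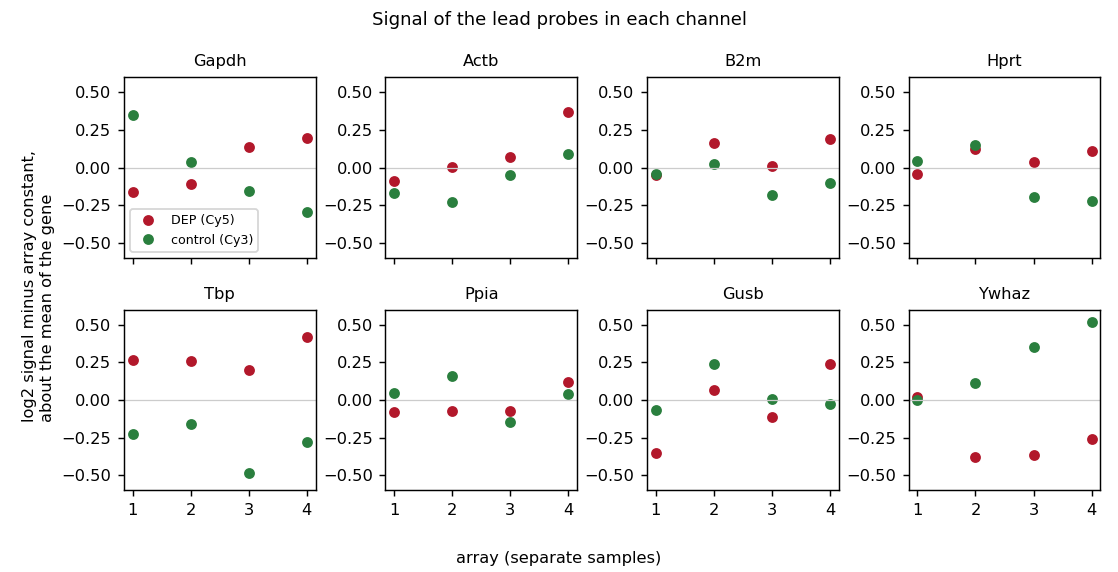
Log2 signal of each lead probe less 1 constant per array, shown about the mean of the gene (vertical axis), on arrays 1 to 4 (horizontal axis), with the DEP channel in red and the control channel in green. The control channel of Gapdh is the higher one on arrays 1 and 2 and the lower one on arrays 3 and 4, the channels of Tbp lie apart on all 4 arrays, and those of Ywhaz coincide on array 1 only.

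Stability was also described without any scaling of the arrays. For a pair of genes, the difference of log2 signal within 1 extract is free of the array's overall brightness, and its SD over the 8 signals (4 arrays, 2 channels) is small when the genes move together. Averaged over its 7 partners, this pairwise SD was lowest for B2m at 0.204, Ppia at 0.213 and Hprt at 0.217. Gusb followed at 0.252, Actb at 0.261 and Gapdh at 0.275, and the highest were Tbp at 0.352 and Ywhaz at 0.449. The first 3 differ by little, and their order changed when an array was left out.

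Among the 28 pairs, Hprt and B2m were the closest, with an SD of 0.0822, and Ywhaz and Tbp the farthest apart, at 0.622. Tbp's place depended on what was compared. Within the DEP extracts alone its mean pairwise SD was 0.131, the second lowest, and within the control extracts 0.166, the third lowest. The step between its channels, of 0.42 to 0.70 on each array, enters only the SD over 8 signals. By the difference of ratios between genes its mean pairwise SD was the lowest, at 0.192, with B2m at 0.193. Gapdh was among the less stable within either channel, sixth in Cy5 at 0.178 and seventh in Cy3 at 0.307, and Ywhaz was last in both.

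Other genes often used for normalisation gave a wider frame. All 26 on a list of such genes were well measured, 14 with a mean ratio above 0 and 12 below, with a median of 0.02 against 0.04 over all 17962 genes, and 0 passed the test. Their highest means were Rpl4, a ribosomal protein, at 0.31 ± 0.12 and Psmb2, a proteasome subunit, at 0.29 ± 0.35. The lowest were Ubb, a polyubiquitin gene, at -0.49 ± 0.15 and Tubb5, a tubulin, at -0.44 ± 0.37. The SD of the ratio was under that of the Gapdh lead probe for 24 of the 26.

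Gapdh's own pathway was next examined. Of 18 other glycolytic enzymes, all well measured, 4 had a mean above 0 and 14 below it, with a median of -0.22, and 0 passed the test. Their median on arrays 1 to 4 was -0.64, -0.28, -0.10 and 0.13, which on arrays 1 and 2 is close to the Gapdh medians. The highest means were Hk2, a hexokinase, at 0.28 ± 0.24 and Aldoa, the muscle aldolase, at 0.22 ± 0.50. The lowest were Aldoc, the brain aldolase, at -1.59 ± 1.50 and Eno2, the neuronal enolase, at -0.94 ± 0.94, which are also on the lists of astrocyte and neuron markers.

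Markers of other tissues also differed between the arrays. The 8 skeletal muscle markers, all well measured, had medians of -0.82, -0.51, 0.75 and 0.76, and their summed signal ran from 252700 to 451600 in the DEP channel and between 222600 and 735600 in the control channel. The 10 neuron markers had medians of -2.27, -1.43, -0.68 and 0.29, with sums between 24560 and 36900 in the DEP channel and between 28070 and 99210 in the control channel. The Gapdh medians lay on the same side of 0 as the medians of the muscle markers on all 4 arrays, and also as those of the neutrophil and macrophage markers. Single muscle markers differed from their median, as Myh1 was at 0.76 and Mb at 0.50 on array 2 and Myh1 at -0.11 on array 3. No muscle or neuron marker was below background throughout in either channel, and the part of these tissues in the Gapdh ratios was not tested.

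**Figure D3:**
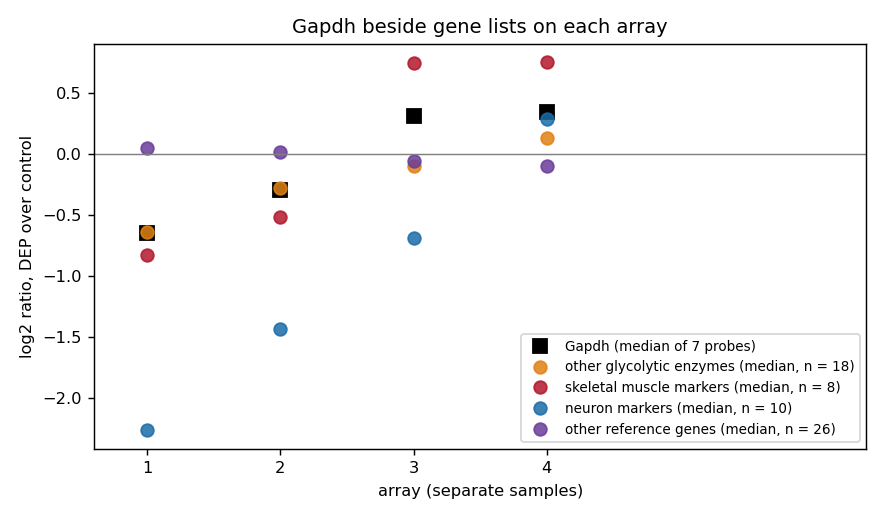
Log2 ratio of DEP over control (vertical axis) on arrays 1 to 4 (horizontal axis) for the median of the 7 Gapdh probes (black squares) and for the medians of 4 gene lists. Gapdh and the muscle markers are below 0 on arrays 1 and 2 and above 0 on arrays 3 and 4, while the medians of the 26 other reference genes lie between -0.10 and 0.06.

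Markers of several further tissues were measured. The 5 cerebellum markers that were well measured, of 8, had medians of -2.55, -3.16, -0.32 and 0.24, and 6 astrocyte markers -2.46, -1.66, -0.32 and 0.20. The medians of 6 keratinocyte markers were 3.00, 0.33, 0.08 and -1.07 on arrays 1 to 4, and those of 6 neutrophil markers -1.23, -0.03, 0.58 and 0.17. The 6 markers of airway-type epithelium, the lining of the middle ear, were all well measured, with medians of -0.25, 0.41, -0.64 and -0.42. The 5 macrophage markers measured had medians of -0.30, -0.03, 0.47 and 0.72. Medians of the B cell, erythroid and bone lists lay between -1.01 and 0.63 on every array. Array 1 had the widest ratios, with an SD over probes of 0.877, against 0.458 to 0.538 on arrays 2 to 4.

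The partners of the other members were looked at in the same way, and none of their genes passed the test. Of 10 actins and actin-binding proteins 5 were above 0 and 5 below. Acta1, the actin of skeletal muscle, had a mean of 0.33 ± 0.98, below 0 on arrays 1 and 2 and above 0 on arrays 3 and 4, and Actc1, that of heart, a mean of 0.25 ± 0.51. The lowest were Tmsb10, a thymosin that binds actin monomers, at -0.57 ± 0.36 and Cfl1, which severs filaments, at -0.29 ± 0.28. The median SD of the list was 0.36, against 0.094 for Actb. It was 0.099 for Pfn1, profilin, and 0.15 for Actg1, the other cytoplasmic actin, both named after their values were seen.

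Around B2m, 10 of 14 genes of MHC class I loading and related molecules had means above 0, with a median of 0.12. Tap1, a peptide transporter, was highest at 0.28 ± 0.39, then Erap1, a peptide trimming enzyme, at 0.26 ± 0.26. The chaperones Calr, at -0.39 ± 0.27, and Pdia3, at -0.27 ± 0.25, were lowest. B2m's mean of 0.16 lay within the range of these genes.

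Of 10 genes of purine metabolism around Hprt, 8 were above 0, with a median of 0.099. Ada, adenosine deaminase, was at 0.23 ± 0.12 and Dck, deoxycytidine kinase, at 0.14 ± 0.72, while Adk, adenosine kinase, was at -0.10 ± 0.40 and Impdh1, which makes guanine nucleotide precursors, at -0.0017 ± 0.27. Of 11 other subunits of RNA polymerase II 10 were measured, which give no measure of the unmatched Polr2a itself. Their median ratio was 0.026, with a median SD of 0.10. Polr2i, at 0.13 ± 0.057, and Polr2j, at 0.10 ± 0.080, were highest, and Polr2c, at -0.29 ± 0.18, and Polr2h, at -0.11 ± 0.057, lowest.

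The other TFIID subunits and related factors had mean ratios below that of the Tbp lead probe. Of 14 measured of 15, 8 had means above 0, with a median of 0.054. The highest were Taf12 at 0.28 ± 0.082 and Taf3 at 0.23 ± 0.087, and the lowest Taf7 at -0.13 ± 0.21 and Taf8 at -0.10 ± 0.19.

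Among 11 cyclophilins and FKBP1A, 6 had means above 0, with a median of 0.050. Ppif, the mitochondrial cyclophilin, was at 0.62 ± 0.79 and Ppil1, a spliceosomal one, at 0.36 ± 0.17. Fkbp1a, a prolyl isomerase of another family, was lower in the DEP channel on 4 of 4 arrays, with -0.55, -0.70, -1.14 and -0.92, and its adjusted p was 0.113. Ppig followed at -0.17 ± 0.16.

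Of 13 lysosomal hydrolases 7 were above 0, with a median of 0.0082. Sgsh, a sulfohydrolase of heparan sulfate, was at 0.38 ± 0.12 and Arsb, another sulfatase, at 0.38 ± 0.26, while Ids was at -0.47 ± 0.50 and Gaa, the acid glucosidase, at -0.20 ± 0.25. Of the 6 other 14-3-3 proteins 2 were above 0 and 4 below, with a median of -0.26. Ywhah was at -0.74 ± 0.79 and Ywhaq at -0.51 ± 0.40, Ywhab at 0.015 ± 0.17, and Sfn, the epithelial form, at 0.24 ± 1.91, from 2.70 on array 1 to -1.95 on array 4. The Ywhaz lead probe lay between Ywhaq and Ywhab.

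The choice of reference changed how many genes passed a fold threshold. Each gene's ratio was set relative to that of a member by subtraction on each array, and genes whose mean then lay past 2-fold were counted among 17961 genes, the member itself being left out of 17962. With the ratios as deposited 1116 genes were past it, 386 higher and 730 lower in the DEP channel, and among the 14281 well-measured genes 507 were. Relative to Gapdh there were 1130, with 354 higher and 776 lower. Actb gave 1253, B2m 1230, Hprt 1193, Ppia 1111 and Gusb 1109, so the totals with these 6 members were between 1109 and 1253. Without array 4 the count was 1846 as deposited, 1893 relative to Gapdh and between 1851 and 1961 relative to the other 5.

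A subtraction shifts every gene by the same amount on an array, so the split by direction follows the ratio of the member itself and is not a further result. It was 211 higher and 1042 lower relative to Actb, 239 and 991 relative to B2m, 271 and 922 relative to Hprt, 453 and 658 relative to Ppia, and 491 and 618 relative to Gusb. The Gapdh probes did not give 1 split. The probes A_55_P1965725 (815 higher, 435 lower), A_55_P1994258 (759 and 460) and A_55_P2088912 (1007 and 364) gave more higher than lower genes, and the other 4, the lead probe included, more lower ones. Without array 4 the Gapdh lead probe gave 988 higher and 905 lower, Gusb 1120 and 841, Ppia 938 and 945, and Hprt 702 and 1149. Actb then gave 568 and 1323, B2m 613 and 1262, and the deposited ratios 755 and 1091. Without array 2 Gusb gave 548 and 527. With normexp and loess the totals lay further apart, at 388 with no reference (71 higher, 317 lower), 567 relative to Gapdh (28 and 539), 474 relative to Ppia (46 and 428) and 897 relative to Actb (14 and 883).

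Tbp and Ywhaz, the members with the highest and lowest mean ratios, moved the split by direction to opposite sides. Relative to the Tbp lead probe 2323 genes were past 2-fold, 60 higher and 2263 lower. Relative to the Ywhaz lead probe there were 1946, 1712 higher and 234 lower, and without array 1 there were 3016. Without array 1 Ywhaz gave 2955 higher and 61 lower. Without array 4 Tbp gave 293 and 2497, and Ywhaz 1748 and 631. Among well-measured genes the counts with all arrays were 1352 relative to Tbp and 904 relative to Ywhaz. With normexp and loess Tbp gave 1242 (8 higher, 1234 lower) and Ywhaz 612 (558 and 54), fewer than the 897 relative to Actb. The other Tbp probe gave 1530 and the other Ywhaz probes 1100 and 1123. The mean of the 8 lead probes gave 1149, with 322 higher and 827 lower, and 1152 without Gapdh.

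A subtraction also moves the test. Relative to Tbp, 8497 genes had an adjusted p under 0.05, 8441 of them lower, and that count was 3721 without array 1, 0 without array 2, 0 without array 3 and 2093 without array 4. The ratios of the reference on the 4 arrays enter every gene alike, so the p-values of different genes are not independent. They also enter the variance that limma shares between genes, which was estimated anew for each reference and setting. Adjusted p-values by limma relative to Gapdh went down to 2.6e-09 without array 1. These counts are therefore not read as numbers of changed genes. Relative to every other member, and to the mean of the 8, the count of genes with an adjusted p under 0.05 by limma was 0 with all 4 arrays, but not in every other setting. Relative to Gapdh it was 839 without array 1, 0 without array 2, 21 without array 3 and 1088 without array 4. Relative to Ywhaz it was 11721 without array 1 and 1027 without array 4, and relative to Gusb 155 without array 1. With normexp and loess it was 15020 relative to Tbp, 12570 relative to Actb, 9326 relative to Ywhaz, 644 relative to Gapdh and 1 relative to Gusb. With all 4 arrays and the deposited ratios, the number with an unadjusted p under 0.05 was 2998 as deposited, 1844 relative to Gapdh and between 2531 and 7186 relative to the others apart from Tbp, which gave 10849.

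The ratios of most genes spread more widely over the arrays once they were set on Gapdh. Over 14280 well-measured genes the median SD of the ratio was 0.286 as deposited and 0.500 relative to Gapdh, and 75.3% of genes had a wider SD relative to it. Ywhaz gave 0.474, with 76.9% wider. Gusb gave 0.355, Hprt 0.341, Ppia 0.333, Tbp 0.323, B2m 0.295 and Actb 0.285, the last with 50.6% of genes wider. The mean of the 8 members gave 0.306. A subtraction adds the movement of the reference to every gene. The order of the members here is that of their own SDs of the ratio, so it is not a further result.

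**Figure D4:**
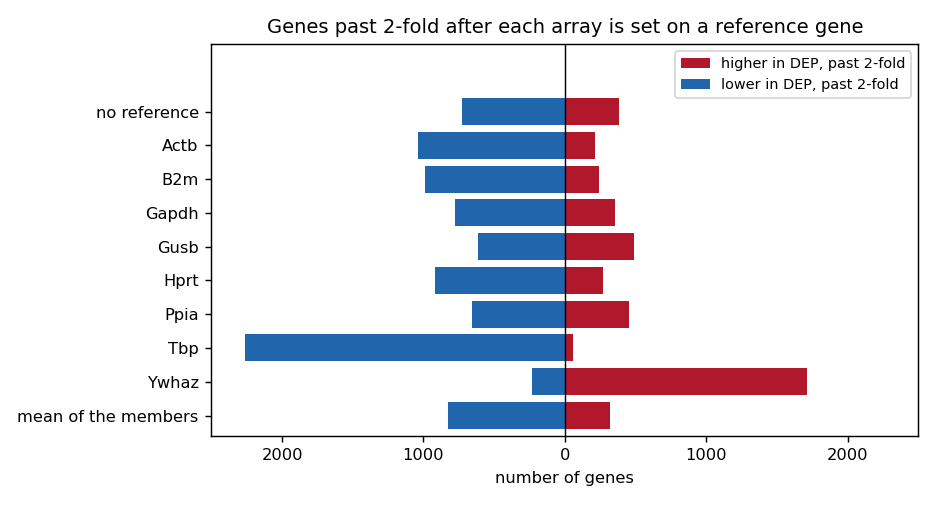
Number of genes with a mean ratio past 2-fold (horizontal axis), higher in the DEP channel to the right in red and lower to the left in blue, with the ratios as deposited and relative to each member or to their mean (rows). Tbp gives 2263 lower and 60 higher genes and Ywhaz 234 lower and 1712 higher, while the other rows lie between 1109 and 1253 in total.

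The genes the study measured by quantitative PCR were set on the members in the same way. Esr1, the estrogen receptor, had ratios of 0.54, 0.76, 0.27 and 0.27, a mean of 0.46 ± 0.23 (SD, n = 4). Relative to Gapdh these became 1.05, 0.90, -0.02 and -0.22, a mean of 0.43 ± 0.64, with 2 of 4 arrays above 0 in place of 4. The mean was -0.11 ± 0.37 relative to Tbp and 0.95 ± 0.31 relative to Ywhaz. The reference thus changed both the spread of Esr1 and its side of 0.

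Cd4, the helper T cell co-receptor, had ratios of 0.053, 0.0068, -0.25 and -0.21, a mean of -0.10 ± 0.15 (SD, n = 4). Relative to Gapdh they were 0.56, 0.15, -0.54 and -0.70, a mean of -0.13 ± 0.59. Relative to Tbp the mean was -0.67 ± 0.28, with 0 of 4 arrays above 0, and relative to Ywhaz 0.39 ± 0.24, with 4 of 4. Of the other 4 targets, Sos1 was well above background in the control channel on 1 array, Ifna1 on 2 and Chrm1 on 3, with Chrm1 on 2 in the DEP channel, and Epo was so on no array in either channel. As deposited, the mean ratio was 1.06 ± 0.59 for Sos1 and 0.74 ± 0.27 for Ifna1, each above 0 on 4 of 4 arrays, and -1.21 ± 1.35 for Chrm1, above 0 on 1. No ratio is given for Epo.

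Genes with ratios most like each member's were found by the root mean square difference of the 4 ratios, among 14280 well-measured genes. Each match rests on 4 values and is a description. Gapdh was nearest to Gbp6, at 0.027, with ratios of -0.51, -0.10, 0.26 and 0.47, then to Rab12 at 0.051 and Wipf3 at 0.054. The nearest to Hprt was Agk at 0.014, to Ppia Snhg6 at 0.023, to Gusb Hgsnat at 0.023, to B2m Mrps23 at 0.024 and to Actb Rbm7 at 0.024. Tbp and Ywhaz had more distant neighbours, Gm13272 at 0.067 and Ylpm1 at 0.083.

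No member was among the genes of least movement. The 5 well-measured genes with the smallest root mean square ratio were Zcchc14 at 0.013, 5830454E08Rik at 0.018, Znrd1as at 0.026, Uba1, the ubiquitin-activating enzyme, at 0.026 and Tarbp2, a partner of Dicer, at 0.027. They were picked as the lowest of 14281 on these same 4 arrays, and no other samples were at hand in which to look at them again.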

How the data were processed

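The 4 two-colour arrays were parts of 1 slide read in 1 scan, so no batch could be tested. The authors quantified spots with Agilent Feature Extraction 10.10.1.1. The deposited processed intensity is background-subtracted and dye-normalised within the array, and the deposited log10 ratio sets Cy5 over Cy3 and is 0 where the software gave none. The authors' table of log10 ratios holds the same values rounded and served as an alternative.

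Here ratios were converted to log2. Control spots, spots without a ratio (6179 to 8558 of 43020 per array) and flagged spots (164 to 274) were left out. The spots of a probe were averaged, and a ratio on 3 arrays was required. Fits that left out 1 array required a ratio on 2. Probes were named through accessions with the RefSeq table of GRCm38.p6 (27655 matched), used for names and promoters only. A probe was well above background where a share of at least 0.5 of its unflagged spots was. An intercept was fitted with limma 3.58.1 (R 4.3.3, eBayes, prior degrees of freedom 1.98). That prior is the one for the deposited ratios, and it was estimated anew in every other fit. Signals were centred with 1 constant per array, the median over probes of the mean log2 signal of both channels. Percentiles, pairwise SDs and subtraction of a member were computed in Python 3.11.15 with pandas 2.3.3 and numpy 2.4.6, and drawn with matplotlib 3.10.9. In simulated ratios for this comparison, over 29925 probes, the fit called 89 probes, 7 of them false, and found 65 of 100 changed by 2 and 17 of 100 changed by 1 on the log2 scale. The small number of arrays limits the precision.

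The members and gene lists were chosen with earlier results of these data known. Named in the text are all member probes, genes of a list past the test or else its 2 highest and 2 lowest means, the quantitative PCR targets, the nearest genes (3 for Gapdh, 1 for each other member) and the 5 of smallest movement. Myh1, Mb, Pfn1, Actg1 and Slc1a2 fall outside this rule and were named after their values were seen. Alternatives were normexp (offset 50) and then loess or median centring, median centring of the deposited ratios, the ratio table, probe and spot filters, eBayes with a trend, an unmoderated fit, other signal scalings and leaving out each array. Other probes of a member as reference, and the mean of the members without Gapdh, were added after seeing the data. Normexp used median spot signals. The quantitative PCR measurements were not analysed here.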

Additional observations from a re-analysis of the deposited data

Results flagged for a closer look

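Of 51 member values tested for 1 array standing apart, 1 did so, a rate near the 1 in 20 that chance gives or under it. The Ppia lead probe, less the array constant, had a log2 Cy5 signal of 10.25 on array 4, against 10.05 to 10.06 on the other 3, a gap of 0.95 of the whole range, past Dixon's critical value at the 95% level. Its ratio on that array, 0.09, was close to that of array 3.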

How the results depend on the processing

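Of 223 member ratios recomputed, 194 kept their direction and side of the threshold, 5 passed it with the same sign and 24 changed sign, of which Ppia also passed it in 1 setting. That setting was normexp with median centring, which replaces the background correction and leaves out the correction for the dyes that the software made. There 3 member probes were past 2-fold, 6 had an adjusted p under 0.05 by limma and 9 an unadjusted one, and 4190 of all probes passed. Members whose sign turned were Gapdh A_55_P1965725 at 0.51, A_55_P1984284 at 0.81, A_55_P1994258 at 0.30, A_55_P2037425 at 0.79 and A_55_P2088912 at 0.35, Ppia at 1.00, Gusb at 0.25, and Ywhaz A_52_P225260 at 0.18 and A_66_P120770 at 0.047. Actb was at 1.31 and the Gapdh lead probe at 1.09. With normexp and loess, Gapdh A_55_P1984284 was at 0.060, A_55_P2037425 at 0.0036 and Ppia at 0.13, and 5 members had an unadjusted p under 0.05. Median centring put Gapdh A_55_P2081133 at -0.017, and the mean of its probes put Gapdh at -0.11. The cause of these turns was not tested.

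Leaving out 1 array in turn moved the mean of Gapdh A_55_P1965725 between -0.42 and 0.014, A_55_P1984284 between -0.21 and 0.16, A_55_P2037425 between -0.17 and 0.19, A_55_P2081133 between -0.11 and 0.14, the lead probe A_55_P2186027 between -0.12 and 0.21, and Ppia between -0.099 and 0.0078. Each of these changed sign. Without a change of sign, Gapdh A_55_P1994258 moved between -0.38 and -0.014, A_55_P2088912 between -0.43 and -0.16, and Ywhaz A_52_P225260 between -0.16 and -0.0032. With 1 array left out, between 1 and 2 members had an unadjusted p under 0.05 by limma. Genes past 2-fold ran from 990 to 1893 relative to Gapdh and from 827 to 1846 relative to the mean of the members, both highest without array 4.

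Without the array constant the members' median signal SD was 0.227 in Cy5 and 0.338 in Cy3, and within Cy5 the mean pairwise SD was 0.170 against 0.278 over all signals. Relative to Gapdh, 529 genes were past 2-fold among probes well above background only, where fewer are tested, and 567 after normexp and loess. Relative to the mean of the members these were 539 and 473. No paired analysis was possible because the arrays form 1 group, with both extracts of an array already in its ratio. No other way of naming probes was tried for Polr2a, and the precision is that of 4 arrays without a dye swap.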
